A study of Mus musculus with 13 samples.

Results

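Expression of 38 coagulation, fibrinolysis and complement genes was followed in mouse liver after bile duct ligation (BDL), an operation that stops bile outflow and leads to cholestasis and fibrosis. The genes were taken from a list of names and not selected by their measured values. Earlier results of these data were known when that list was chosen. All 38 were matched through their Entrez gene identifiers, out of 23666 named genes in the larger count tables. Whole-liver RNA was sequenced from 13 C57 mice aged 3 months. Coagulation and fibrinolysis account for 19 of the genes and complement for the other 19.

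The no BDL group held 5 mice that the labels call non treated, and whether they had a sham operation is not given in the sources used here. In the miR-Ctrl BDL group, 4 mice underwent ligation and received a control oligonucleotide. The anti-miR-873-5p BDL group held 4 ligated mice given a hairpin inhibitor of the microRNA miR-873-5p. Both ligated groups received 60 µg per mouse through the tail vein on day 3 and day 5 after surgery and were killed on day 7, so that ligation and injection cannot be told apart in either comparison with no BDL. The paper describes the mice as male and wild type for Gnmt, the glycine N-methyltransferase gene. No unligated mouse received either oligonucleotide. Whether the mice of a group shared a litter or a cage is not given either, so p-values measure the spread between these animals.

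Most plasma clotting and complement proteins are made by hepatocytes and secreted into blood. In clotting, a cascade of serine proteases ends in thrombin, which turns soluble fibrinogen into fibrin, while antithrombin, heparin cofactor II and the protein C system hold it back and plasmin dissolves the clot. Complement is started by C1q, by lectins such as mannose-binding lectin, or by the alternative pathway, and all of these converge on C3 and then on the membrane attack complex built from C5 to C9. C1q is the exception in its source, since its chains come mainly from macrophages, including the Kupffer cells of the liver. Several of these proteins, among them fibrinogen, C3 and factor B, are acute-phase proteins whose synthesis rises in inflammation.

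Depth lay between 12185333 and 19689037 counts per library, enough for every one of the 38 genes to pass the filter on low counts in each comparison. Per-mouse values below are normalised read counts, that is CPM on library sizes scaled by the trimmed mean of M-values (TMM) over all 13 mice, and fold changes come from edgeR fits to each deposited table. The 38 genes took 2.18% to 3.82% of all counts in no BDL livers and 4.20% to 7.34% in ligated ones, while the 20 most abundant genes of the no BDL livers took 31.2% to 47.9% and 12.4% to 15.9%. Scaling by library size alone moved the median over all genes to a log2 fold change of 0.79 for miR-Ctrl BDL, from -0.01 with TMM. For the anti-miR-873-5p BDL group it moved to 0.82, also from -0.01. Leaving the 20 genes with the most counts in each comparison out of the library size still gave medians of 0.35 and 0.34. Changes are therefore relative to the bulk of genes. Single mice stood apart. No BDL mouse 5 had 6823 normalised reads of the acute-phase gene Saa1 against 47.7 to 98.3 in the other 4 no BDL mice. Mouse 3 of miR-Ctrl BDL and mouse 2 of anti-miR-873-5p BDL had the lowest summed counts of 7 cholangiocyte markers in their groups, 507.5 and 252.5, and both are missing from the table that compares the ligated groups. Most of these sums is Spp1 alone, whose lowest values in the 2 ligated groups were 403.3 and 194.9.

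In miR-Ctrl BDL livers 6 of the 38 genes rose and 12 fell against no BDL (adjusted p under 0.05, edgeR quasi-likelihood test with Benjamini-Hochberg adjustment over all genes tested). C1qa, C1qb, C1qc, C3, Cfb and Pros1 rose, and C8g, C8b, Klkb1, F11, Proc, Masp2, F13b, F7, Serpind1, F2, Plg and F10 fell. Over all 13072 genes tested, 19.1% rose and 16.6% fell, against 15.8% and 31.6% of the 38. The median log2 fold change was -0.29 for the 38 genes and -0.01 for all genes. Coagulation genes counted 1 higher and 9 lower of 19, and complement genes 5 higher and 3 lower of 19. Without no BDL mouse 5 and miR-Ctrl BDL mouse 3, an alternative chosen after seeing the data, 8 of the 38 were higher and 16 lower. Over all 13349 genes tested in that fit, 3156 rose and 2908 fell. The count of the 38 that were higher was 2 without no BDL mouse 2 or 4 or miR-Ctrl BDL mouse 2 or 4. It was 3 without no BDL mouse 1 or 3. Over all genes, 2036 to 2119 rose in those fits, against 2491 with all mice. Scaling by library size alone gave 20 of the 38 higher and 2 lower, against 9360 and 275 of all 13072 genes.

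Fewer of the 38 passed the test in the anti-miR-873-5p BDL livers, where 2 rose, C3 and Pros1, and 10 fell. Those that fell were C8g, C8b, F11, Klkb1, Masp2, Proc, Serpind1, F7, F2 and F10. Background shares over 13130 genes were 13.1% higher and 8.44% lower, against 5.26% and 26.3% of the 38. The median log2 fold change was -0.27 for the 38 and -0.01 for all genes. Both comparisons use the same 5 no BDL mice. Without no BDL mouse 5 and anti-miR-873-5p BDL mouse 2, an alternative chosen after seeing the data, 6 of the 38 were higher and 11 lower. Over all 13446 genes tested in that fit, 2748 rose and 2071 fell. The count of the 38 that were lower was 5 without no BDL mouse 2 or 4 or anti-miR-873-5p BDL mouse 4, and 6 without inhibitor mouse 3. Over all genes, 357 to 589 fell in those fits, against 1108 with all mice. Only 1 of the 38 was higher without no BDL mouse 1, 2, 3 or 4 or inhibitor mouse 3 or 4. Over all genes, 904 to 1153 rose in those fits, against 1715 with all mice. The count of the 38 that were higher was 5 without no BDL mouse 5 and 4 without inhibitor mouse 2. Of all genes, 1889 and 2500 rose in these 2 fits. Scaling by library size alone gave 18 of the 38 higher and 1 lower, against 10063 and 131 of all 13130 genes.

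**Figure D1:**
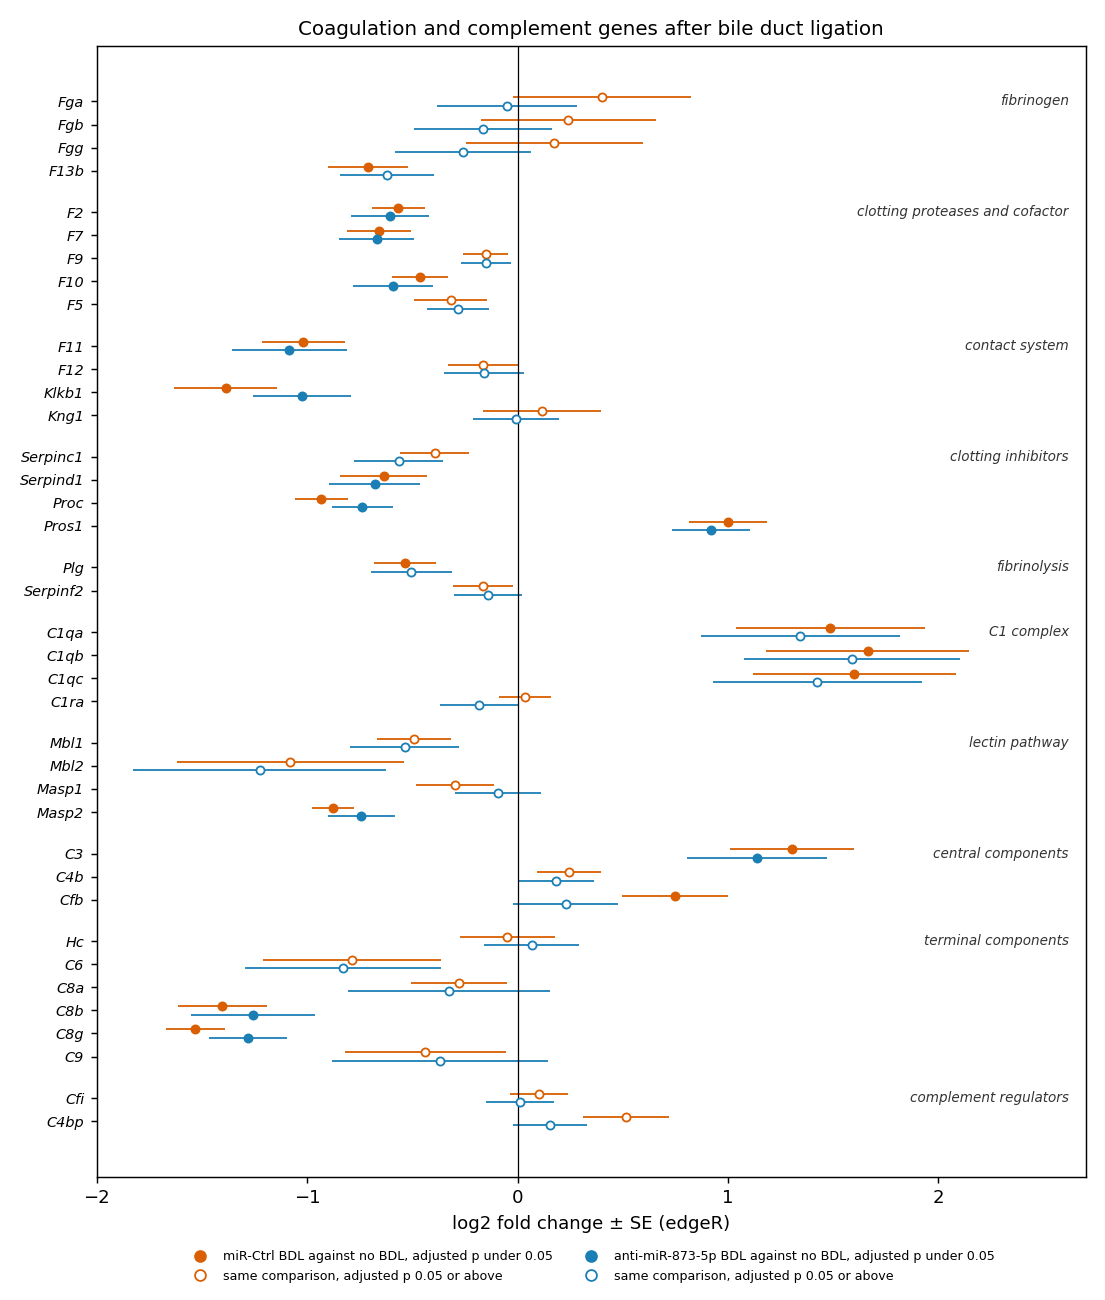
Log2 fold change (x axis, point, with its standard error as the bar) of each of the 38 genes (rows, grouped by role) in the 2 ligated groups against no BDL. Filled points passed an adjusted p of 0.05: C3 and Pros1 lie right of 0 and C8b and C8g left of it in both comparisons, while the C1q genes have the widest bars among the genes that rose.

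Some hepatocyte markers fell in the same comparisons. Of 10 listed markers 9 were found, and 5 of these 9 fell in miR-Ctrl BDL and 2 of 9 in anti-miR-873-5p BDL, none of them being at 0 in any mouse. Their summed normalised read count was 122700 to 137900 in no BDL mice, 54030 to 86030 in miR-Ctrl BDL and 47390 to 105800 in anti-miR-873-5p BDL mice. Alb was the largest part of that sum, with group means of 83220, 46960 and 46580. In whole liver, fewer hepatocytes and less RNA per hepatocyte cannot be told apart.

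Fibrinogen, the clot-forming protein, is assembled from the products of Fga, Fgb and Fgg, which lie side by side on chromosome 3 (Fgg at chr3:83007724-83015056, Fga 11.1 kb further on and Fgb 8.6 kb beyond Fga, mm10). They were 3 of the 4 most abundant of the 38 transcripts per kilobase of exon in every group, at 1999 (Fgg), 1798 (Fga) and 1422 (Fgb) normalised reads per kilobase in no BDL livers. Fga measured 4619, 5184, 3644, 4279 and 9334 normalised reads in no BDL mice 1 to 5. In miR-Ctrl BDL mice 1 to 4 it measured 3443, 5541, 13890 and 5430, and in anti-miR-873-5p BDL mice 1 to 4 it measured 3546, 5114, 6430 and 5465. The groups overlapped, with no BDL mouse 5 and miR-Ctrl BDL mouse 3 far above the rest. No fibrinogen chain passed the test, the log2 fold changes being 0.40 ± 0.42 (SE) for Fga, 0.24 for Fgb and 0.17 for Fgg in miR-Ctrl BDL and -0.05 ± 0.33, -0.16 and -0.26 in anti-miR-873-5p BDL. Without miR-Ctrl BDL mouse 3 the log2 fold change of Fga in miR-Ctrl BDL was -0.15 (adjusted p = 0.728, edgeR). Without no BDL mouse 5 it was 0.69, also short of the threshold. The direction thus depended on which of these high mice was kept. F13b, which encodes the carrier subunit of the fibrin-crosslinking factor XIII, fell in miR-Ctrl BDL (log2 fold change -0.71 ± 0.19, adjusted p = 0.0156, edgeR). In anti-miR-873-5p BDL its value was -0.62 (adjusted p = 0.0741).

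Prothrombin, the precursor of thrombin, is encoded by F2, which fell in both comparisons. F2 (chr2:91612397-91636457) measured 1841, 1879, 1937, 1824 and 1911 normalised reads in the 5 no BDL mice. It measured 1201, 1217, 1294 and 1279 in the miR-Ctrl BDL mice and 1512, 1003, 1256 and 1080 in those of anti-miR-873-5p BDL. Every ligated mouse lay below every no BDL mouse. The log2 fold changes were -0.57 ± 0.13 (adjusted p = 0.00697) and -0.60 ± 0.18 (adjusted p = 0.0425, edgeR). Factor VII, which with tissue factor starts clotting, and factor X, which cleaves prothrombin, are encoded 1.5 kb apart on chromosome 8. On the log2 scale F7 fell by 0.66 with the control oligonucleotide and 0.67 with the inhibitor, and F10 fell by 0.46 and 0.59. For both genes too, all ligated mice lay below all no BDL mice. F9 (-0.15 in each comparison) and the cofactor gene F5 (-0.32 and -0.28) did not pass the test.

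Direction for the smaller falls rested on the scaling. With library size alone, 17 of the 24 negative log2 fold changes in miR-Ctrl BDL and 23 of the 28 with the inhibitor turned positive. Among them, F2 (0.23 and 0.21), F7 (0.14 and 0.16), F10 (0.33 and 0.24) and Serpind1 (0.19 and 0.15) were positive in both comparisons, as were F13b (0.10 and 0.20) and Plg (0.26 and 0.32). Proc and Masp2, at 0.07 each, turned positive in anti-miR-873-5p BDL alone. All of these stayed below the median of all genes under that scaling. C8g, C8b, Klkb1 and F11 kept negative values in both comparisons under every scaling tried. When 1 mouse was left out, several of the smaller falls lost their call. With the inhibitor F2 and F10 passed in 2 of 9 fits, Serpind1 in 1 and F7 in 5, and in miR-Ctrl BDL Serpind1 passed in 3 and F10 in 8. Of the deeper falls with the inhibitor, F11 (-1.09) passed in 6 of 9 fits and Klkb1 (-1.02) in 8.

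Contact activation genes split into a pair that fell and a pair that did not pass the test. F11 and Klkb1, which encode factor XI and plasma prekallikrein, a pair of closely related proteases, are 4.6 kb apart on chromosome 8 (F11 at chr8:45240659-45262055, Klkb1 at chr8:45266688-45294835). Klkb1 measured 125.2, 163.6, 142, 119.1 and 90 normalised reads in no BDL mice. It measured 56.26, 51.86, 27.16 and 56.41 in miR-Ctrl BDL and 86.03, 42.8, 65.39 and 52.7 in anti-miR-873-5p BDL. No ligated mouse reached the lowest no BDL mouse, mouse 5. The log2 fold changes were -1.39 ± 0.25 (adjusted p = 0.00243) and -1.02 ± 0.23 (adjusted p = 0.0151, edgeR). As 42.7% of the 50-base windows of Klkb1 also occur in other genes, mainly the overlapping Gm45753, and the library kit does not mark strand, reads of these genes could not be told apart.

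F11 measured 71.88, 138.5, 91.22, 114.3 and 95.09 normalised reads in no BDL mice. The miR-Ctrl BDL mice had 51.93, 58.77, 43.16 and 44.58 and those of anti-miR-873-5p BDL 59.34, 29.29, 63.82 and 36.38, all below the no BDL range. F11 was lower by 1.02 ± 0.20 and 1.09 ± 0.27 (log2 fold changes -1.02 and -1.09, adjusted p = 0.00347 and 0.0218, edgeR). F12, whose product starts the contact pathway, had values of -0.16 in each comparison, and Kng1, a kininogen gene that shares 17.2% of its windows with Kng2, 0.12 and -0.01. Without miR-Ctrl BDL mouse 3, which at 701.3 normalised reads lay above the 413.1 to 442.9 of its group, F12 passed the test at -0.38 (adjusted p = 0.0132).

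**Figure D2:**
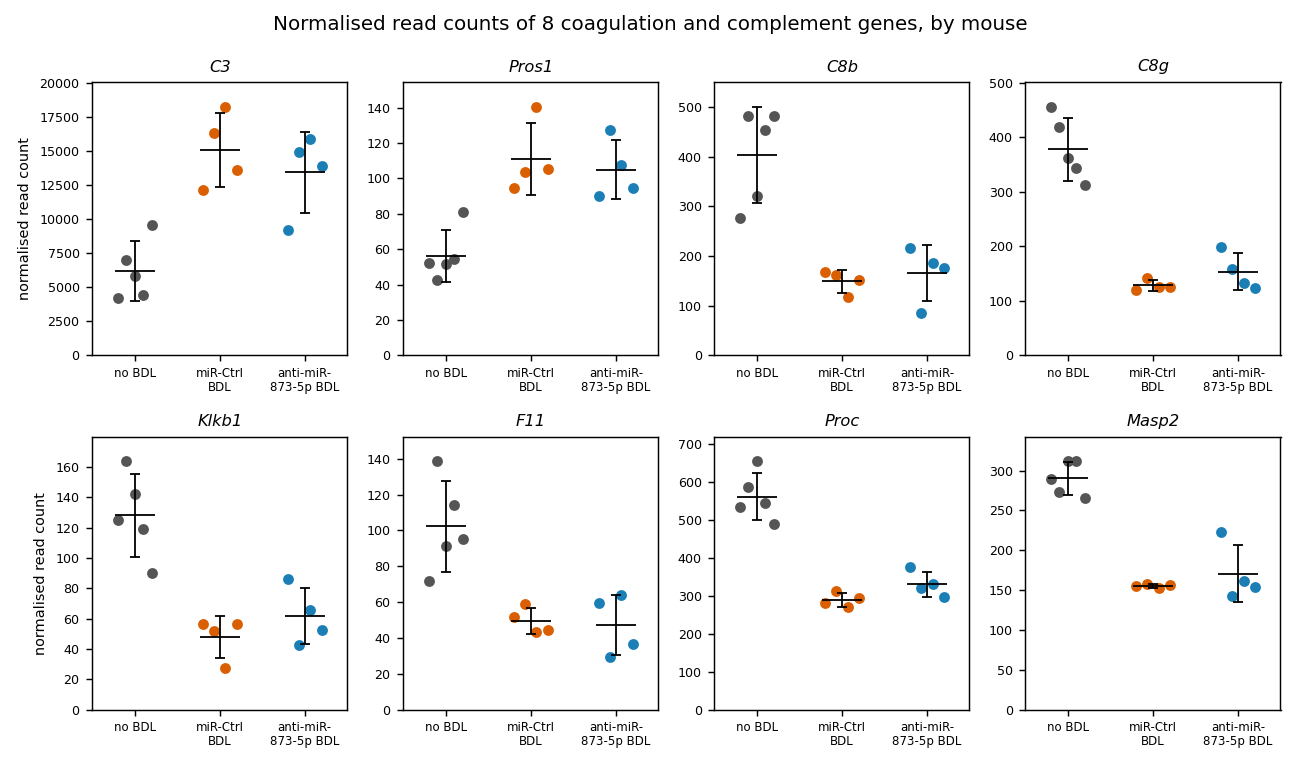
Normalised read counts (y axis, linear from 0) of 8 genes in each mouse of the 3 groups (x axis), points being mice and the bar and whiskers the mean ± SD. C3 and Pros1 are higher in ligated mice, and C8b, C8g, Klkb1, F11, Proc and Masp2 have every ligated mouse below every no BDL mouse.

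Clotting inhibitors moved in both directions. Pros1 encodes protein S, the cofactor of activated protein C, and it rose, whereas Proc, which encodes protein C itself, fell. Pros1 (chr16:62854307-62929346) measured 52.18, 42.42, 51.37, 54.41 and 80.94 normalised reads in no BDL mice, 94.27, 103.6, 140.2 and 105.2 in miR-Ctrl BDL mice, and 90.04, 127.3, 107.4 and 94.44 in anti-miR-873-5p BDL mice. All 8 ligated mice lay above all no BDL mice, of which mouse 5 was the highest. The rise was 2.00-fold (log2 1.00 ± 0.19, adjusted p = 0.00306) in miR-Ctrl BDL and 1.89-fold (log2 0.92 ± 0.18, adjusted p = 0.00895, edgeR) in anti-miR-873-5p BDL. Its call held without any single mouse in both comparisons. Per kilobase Pros1 was among the lowest of the 38 in no BDL livers, at 13.8 normalised reads, above Masp1 alone at 7.05.

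Proc lies on chromosome 18 and measured 532.9, 585.5, 653.4, 543.6 and 488.4 normalised reads in no BDL mice. Values were 280, 312.3, 269 and 293.5 in miR-Ctrl BDL and 374.7, 320.7, 331 and 295.6 in anti-miR-873-5p BDL, with no overlap with the no BDL mice. Its log2 fold changes were -0.93 ± 0.13 (adjusted p = 0.000639) and -0.74 ± 0.15 (adjusted p = 0.00869, edgeR). Serpind1, the heparin cofactor II gene, fell by 0.64 and 0.68 on the log2 scale (adjusted p = 0.0374 and 0.049). Serpinc1, which encodes antithrombin, the main inhibitor of thrombin, measured 2210, 2275, 2327, 2077 and 2149 normalised reads in no BDL mice. The miR-Ctrl BDL mice had 1724, 1460, 1371 and 2051 and those of anti-miR-873-5p BDL 1938, 1183, 1589 and 1150. Although every ligated mouse was below the no BDL range, Serpinc1 did not pass the test (log2 fold changes -0.39 ± 0.17 and -0.56 ± 0.21, adjusted p = 0.0896 and 0.0839, edgeR). Zbtb37 overlaps it and shares 33.6% of its 50-base windows.

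In fibrinolysis, the plasminogen gene Plg fell in miR-Ctrl BDL (log2 fold change -0.54 ± 0.15, adjusted p = 0.0181, edgeR) and with the inhibitor had -0.50 (adjusted p = 0.0889). Slc22a3 overlaps Plg and shares 10.2% of its 50-base windows. Serpinf2, which encodes the plasmin inhibitor alpha-2-antiplasmin, had -0.16 and -0.14 and passed in neither.

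C3, the component on which every complement pathway converges, rose in both ligated groups. It measured 4183, 7026, 5799, 4423 and 9528 normalised reads in no BDL mice, 12160, 16320, 18200 and 13600 in miR-Ctrl BDL mice, and 9157, 14880, 15850 and 13850 in anti-miR-873-5p BDL mice. All miR-Ctrl BDL mice lay above the no BDL mice, and anti-miR-873-5p BDL mouse 1 lay just under no BDL mouse 5. The rise was 2.47-fold (log2 1.30 ± 0.30, adjusted p = 0.00759) and 2.20-fold (log2 1.14 ± 0.33, adjusted p = 0.0362, edgeR). In the first comparison it passed without any single mouse, and in the second in 3 of 9 such fits, with adjusted p from 0.0167 to 0.103. At 1204 normalised reads per kilobase C3 came after the 3 fibrinogen genes in no BDL livers, and at 2930 and 2612 it was the highest of the 38 in both ligated groups.

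C3 and Pros1 are the 2 genes that rose in both comparisons, so the 120 bases before their transcription starts are shown with that of Fgb, a fibrinogen gene that did not pass the test. The sequences are RefSeq, GRCm38.p6, C3 from chr17:57228137-57228256 on the minus strand, Pros1 from chr16:62854187-62854306 on the plus strand and Fgb from chr3:83049864-83049983 on the minus strand. Capitals mark a C/EBP match (TTGCNNAA) in C3 and Fgb and a STAT match (TTCNNNGAA) in Pros1.
C3: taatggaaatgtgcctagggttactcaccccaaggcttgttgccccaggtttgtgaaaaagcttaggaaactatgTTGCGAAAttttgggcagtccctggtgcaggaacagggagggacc
Pros1: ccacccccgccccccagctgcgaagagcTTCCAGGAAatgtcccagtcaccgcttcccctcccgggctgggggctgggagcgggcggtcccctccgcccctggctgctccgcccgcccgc
Fgb: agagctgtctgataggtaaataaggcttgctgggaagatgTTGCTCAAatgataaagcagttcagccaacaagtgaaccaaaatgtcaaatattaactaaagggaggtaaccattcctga
The C3 match begins at -45 and the Pros1 match at -92 from the start. C/EBP and STAT proteins are transcription factors of the acute-phase response in hepatocytes. Over 250 bases before the start and both strands, 7 of the 30 members with a promoter entry held TTGCNNAA (Fga, Fgb, F9, F11, Klkb1, C3 and C9), or 23.3% against 9.6% of 27024 mouse promoters. TTCNNNGAA occurred in 6 of 30 (Fga, Fgb, F9, Pros1, Masp2 and C8a, the Masp2 entry being for a start inside the gene), or 20% against 7.1%. The hepatocyte factor motif TTAATNATT (HNF1) occurred in 3 of 30, F13b, Hc (its entry too being for a start inside the gene) and C4bp, or 10% against 1.5%, and CAAAGTCCA (HNF4) in 0 of 30 against 0.4%. Genes with a C/EBP match thus include C3, which rose, and F11 and Klkb1, which fell. The entries of F9, F11, C8a, F13b and C4bp also have starts inside the annotated gene, nearer its outer end than those of Masp2 and Hc.

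Factor B, the protease of the alternative pathway convertase, is encoded by Cfb, which rose 1.68-fold in miR-Ctrl BDL (log2 0.75 ± 0.25, adjusted p = 0.0419, edgeR). It measured 1048 to 2115 normalised reads in no BDL mice, mouse 5 being the highest, and 1837 to 3177 in miR-Ctrl BDL. With the inhibitor it measured 1264 to 1909 and the log2 fold change was 0.23 (adjusted p = 0.549). The miR-Ctrl BDL call of Cfb held in 2 of the 9 fits without 1 mouse. Of its 50-base windows 73.0% are shared with the read-through gene Gm20547. C4b, which shares 34.6% of its windows with its copy C4a, had log2 fold changes of 0.24 and 0.18 and passed in neither comparison.

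The 3 genes of the C1q chains, which recognise antibody and apoptotic cells, lie together on chromosome 4 (C1qb at chr4:136880126-136886200, with C1qc 3.6 kb and then C1qa 3.0 kb further on) and had the largest rises of the 38. C1qa measured 16.85, 23.07, 38.91, 19.07 and 77.12 normalised reads in no BDL mice, 77.77, 135.7, 61.82 and 110.4 in miR-Ctrl BDL mice, and 53.15, 59.87, 94.43 and 141.2 in anti-miR-873-5p BDL mice. Ligated mice exceeded no BDL mice 1 to 4, and no BDL mouse 5 lay inside both ligated ranges.

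C1qb measured 15.55, 26.31, 45.01, 24.41 and 92.39 in no BDL mice, 97.23, 176.7, 79.9 and 153.6 in miR-Ctrl BDL mice, and 63.65, 84.31, 138.8 and 195.3 in anti-miR-873-5p BDL mice. C1qc measured 14.95, 21.83, 38.14, 19.64 and 81.97 in no BDL mice, 83.97, 143.8, 65.24 and 128.2 in miR-Ctrl BDL mice, and 55.46, 67.16, 103.8 and 146.1 in anti-miR-873-5p BDL mice. Within each group the mice stood in the same order for the 3 genes. In miR-Ctrl BDL the rises were 2.80-fold for C1qa (log2 1.49 ± 0.45, adjusted p = 0.0269), 3.17-fold for C1qb (1.66 ± 0.48, adjusted p = 0.0229) and 3.04-fold for C1qc (1.60 ± 0.48, adjusted p = 0.0267, edgeR).

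In anti-miR-873-5p BDL the C1q genes were 2.54-fold, 3.01-fold and 2.69-fold higher without passing the test (adjusted p = 0.0687, 0.0511 and 0.0665). Leaving out no BDL mouse 5 raised the log2 fold changes in this comparison to 1.87, 2.15 and 2.01 (adjusted p = 0.00888, 0.00805 and 0.00695). In miR-Ctrl BDL the same step gave 2.01, 2.22 and 2.19. C1qa kept its miR-Ctrl BDL call in 3 of the 9 fits without 1 mouse, C1qb in 5 and C1qc in 3. C1ra, the protease partner of C1q and a hepatocyte gene, had 0.04 and -0.18, but 50.8% of its 50-base windows occur in its copy C1rb or in Gm18840.

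Kupffer cell and macrophage markers moved with the C1q genes. Of 10 markers, none at 0 in any mouse, 7 rose in miR-Ctrl BDL and 2 in anti-miR-873-5p BDL, and their summed normalised read count was 134.8, 226.4, 378, 178.9 and 786.3 in no BDL mice. The sums were 866.3, 1968, 847.4 and 1360 in miR-Ctrl BDL mice and 524.1, 563.4, 933.9 and 1618 in anti-miR-873-5p BDL mice. No BDL mouse 5 stood above the other no BDL mice in this sum as it did in the 3 C1q genes, and the part of macrophage number in the C1q values was not tested.

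**Figure D3:**
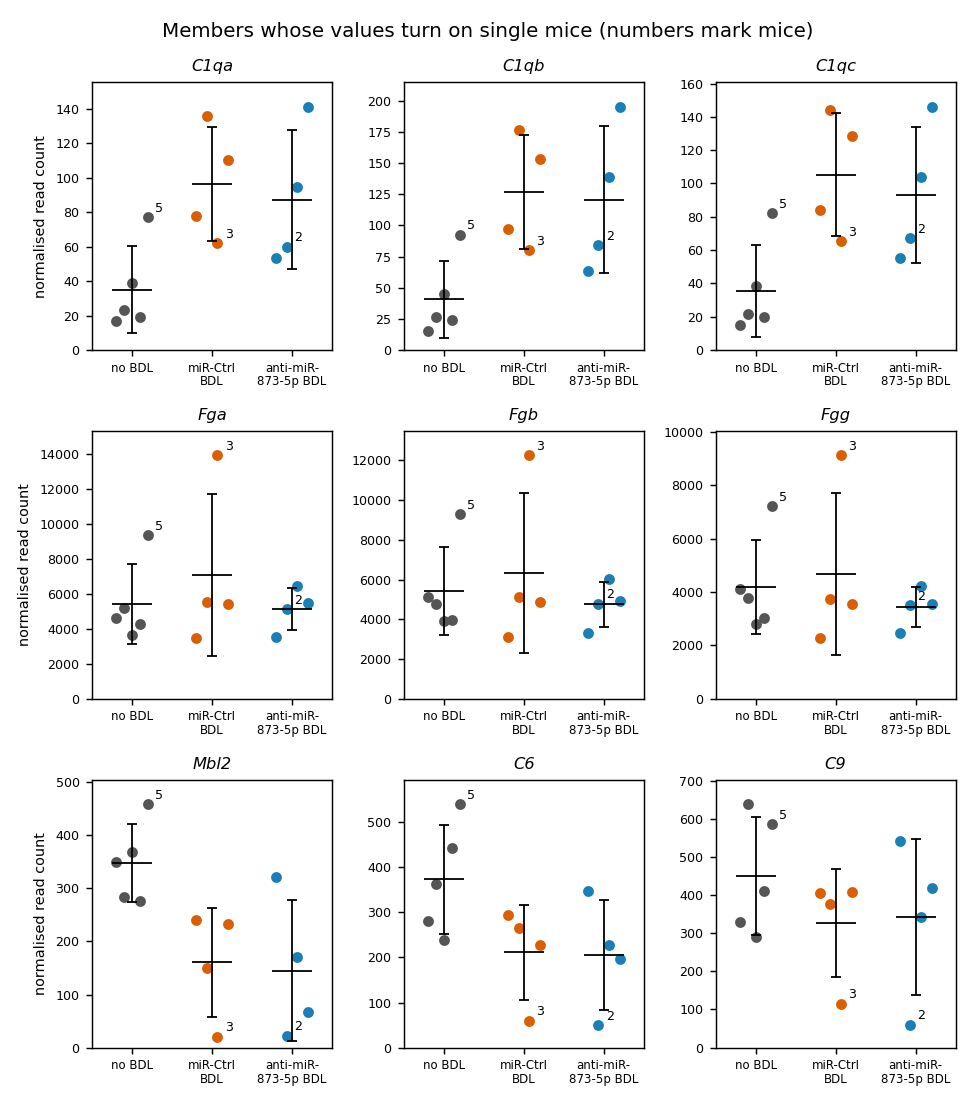
Normalised read counts (y axis, linear from 0) of 9 genes by mouse in the 3 groups (x axis), with mean ± SD and numbers on no BDL mouse 5, miR-Ctrl BDL mouse 3 and anti-miR-873-5p BDL mouse 2. Mouse 5 is the highest no BDL mouse for the C1q and fibrinogen genes, and mice 3 and 2 are the lowest of their groups for Mbl2, C6 and C9.

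In the lectin pathway, Masp2, which encodes the protease that cleaves C4 and C2, fell. It measured 265.7 to 311.6 normalised reads in no BDL mice, 152.3 to 157.7 in miR-Ctrl BDL mice and 143 to 222.7 in anti-miR-873-5p BDL mice, without overlap. The log2 fold changes were -0.88 ± 0.10 (adjusted p = 0.000284) and -0.74 ± 0.16 (adjusted p = 0.0114, edgeR). Of its 50-base windows 52.5% lie in Tardbp, which overlaps it on chromosome 4, so its counts may hold reads of that gene. Masp1 passed in neither comparison (-0.30 and -0.09).

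Mbl2, a mannose-binding lectin gene, measured 349.1, 284.4, 369, 275.4 and 458 normalised reads in no BDL mice, 240.8, 149, 20.75 and 231.9 in miR-Ctrl BDL mice, and 321.1, 22.77, 169.7 and 66.71 in anti-miR-873-5p BDL mice. Its log2 fold changes, -1.08 ± 0.54 and -1.23 ± 0.60, did not pass (adjusted p = 0.146 and 0.172). Without miR-Ctrl BDL mouse 3 the first was -0.72 and passed (adjusted p = 0.0214, edgeR). Mbl1 had -0.49 (adjusted p = 0.0528) and -0.54 (adjusted p = 0.165).

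The terminal components, which form the membrane attack complex, held the deepest falls among the genes that passed. C8 is made of an alpha, a beta and a gamma chain, encoded by C8a, C8b and C8g. C8g (chr2:25498650-25501777) measured 455.5, 418.5, 361.5, 343.2 and 312.7 normalised reads in no BDL mice, 120.2, 142.8, 126.2 and 125.2 in miR-Ctrl BDL mice, and 199.8, 157.9, 132.1 and 124.1 in anti-miR-873-5p BDL mice. The highest ligated mouse was at 199.8 and the lowest no BDL mouse at 312.7. Its level was 0.346 of the no BDL level in miR-Ctrl BDL (log2 -1.53 ± 0.14, adjusted p = 0.000121) and 0.411 of it with the inhibitor (-1.28 ± 0.19, adjusted p = 0.00251, edgeR).

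C8b (chr4:104766317-104804548) measured 276.7, 481.1, 320.3, 453.4 and 481.4 in no BDL mice, 168.4, 162.3, 116.6 and 150.7 in miR-Ctrl BDL mice, and 216.1, 84.92, 185.5 and 174.9 in anti-miR-873-5p BDL mice. Again no ligated mouse reached the no BDL range, and the log2 fold changes were -1.40 ± 0.21 (adjusted p = 0.00108) and -1.26 ± 0.29 (adjusted p = 0.0169, edgeR). C8a, whose gene is 11.1 kb from C8b, did not pass. It measured 479.1 to 1076 in no BDL mice, 511.3 to 691.8 in miR-Ctrl BDL mice, and 704 to 799.3 in anti-miR-873-5p BDL mice other than mouse 2, which had 116.7. The log2 fold changes of C8a were -0.28 ± 0.23 and -0.33 ± 0.48, and 0.01 in anti-miR-873-5p BDL without mouse 2. C8b and C8g kept their calls in all 9 fits without 1 mouse in each comparison.

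C6 measured 239.5 to 539.6 normalised reads in no BDL mice and C9 289 to 637.8. In miR-Ctrl BDL mouse 3 they were at 59.32 and 115.3, and in anti-miR-873-5p BDL mouse 2 at 50.24 and 60.48, against 196.2 to 348.3 and 342.8 to 542.8 in the other ligated mice. C6 (-0.79 and -0.83), C9 (-0.44 and -0.37) and the C5 gene Hc (-0.05 and 0.07) passed in neither comparison. Among complement regulators, Cfi, the factor I gene, had 0.10 and 0.01. C4bp, which encodes the C4b-binding protein, had 0.52 (adjusted p = 0.0753) and 0.16, and in miR-Ctrl BDL it passed without no BDL mouse 5 (0.63, adjusted p = 0.0324, edgeR).

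Between the ligated groups, which address the effect of the inhibitor, 3 mice of each entered the deposited table. None of the 38 genes passed the test, against 0 (0%) of 13746 genes in all, while 863 of all genes and 0 of the 38 had an unadjusted p under 0.05 in edgeR. DESeq2 called 30 genes, none of the 38. The log2 fold changes of the 38 ran from -0.24 to 0.31 with a median of 0.04, against 0.01 for all genes, and the lowest adjusted p was 0.781. The 6 furthest from 0 were Klkb1 (0.31 ± 0.18), C8b (0.26 ± 0.13), Mbl1 (0.25 ± 0.13), Cfb (-0.24 ± 0.18), C1qc (-0.23 ± 0.35) and C8g (0.22 ± 0.20). Klkb1, C8b, Mbl1 and C8g were on the higher side and Cfb and C1qc on the lower side, each by less than the test could separate. These signs cannot be read against the changes from no BDL. The same miR-Ctrl BDL mice enter both comparisons, so opposite signs can arise without an effect of the inhibitor. With all 4 mice of each group Mbl1 had -0.05, and without anti-miR-873-5p BDL mouse 1 C1qc had 0.07 and C8g -0.03.

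**Figure D4:**
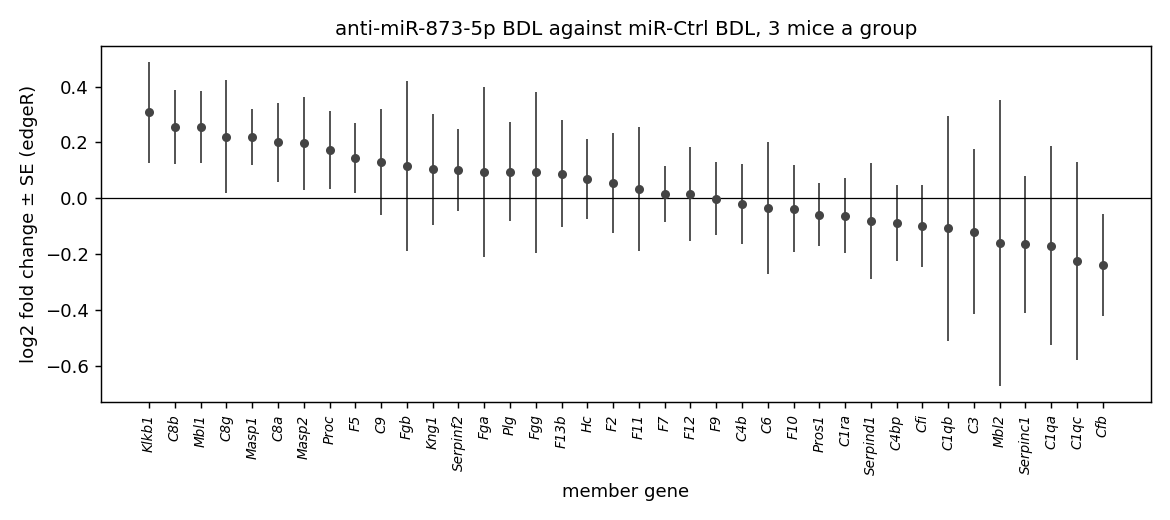
Log2 fold change (y axis, point, with its standard error as the bar) of the 38 genes (x axis, in descending order) with the inhibitor against the control oligonucleotide, both after ligation. Values run from 0.31 for Klkb1 to -0.24 for Cfb, and none passed an adjusted p of 0.05.

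The microRNA itself is not measured in these mRNA counts. A microRNA acts by pairing its seed, bases 2 to 8, with the 3′ untranslated region of an mRNA, so the mature mouse sequence (RefSeq, GRCm38.p6, chr4:36668556-36668576, minus strand) is shown with its seed in capitals, beside the sites of Klkb1 and C1qc, the members with a match among the 6 named above. Capitals in those mark the seed match GTTCCTG.
mmu-miR-873a-5p: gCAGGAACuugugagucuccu
Klkb1 site: tttcattgtgtGTTCCTGcacaaagtagc
C1qc site: agtccaccctgGTTCCTGatccatcggcc
The Klkb1 match starts at base 2679 of 3213 and the C1qc match at base 95 of 239 of the untranslated region (GENCODE M21). Matches were found in 6 of the 38 genes, the others being Fgb, Serpinc1, Serpind1 and Masp1. That is 15.8%, against 16.0% of 19813 genes with an annotated 3′ untranslated region. Their log2 fold changes between the ligated groups had both signs: 0.31 for Klkb1, 0.22 for Masp1, 0.11 for Fgb, -0.08 for Serpind1, -0.16 for Serpinc1 and -0.23 for C1qc, none passing the test.

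Other genes of the pathways were taken from a list of 33 for clotting and fibrinolysis and 30 for complement. Of the 29 clotting genes tested, 10 rose and 5 fell in miR-Ctrl BDL, and 7 rose and 2 fell in anti-miR-873-5p BDL. Over all genes tested, 19.1% rose and 16.6% fell in miR-Ctrl BDL, and 13.1% rose and 8.44% fell in anti-miR-873-5p BDL. On the log2 scale Plat, the tissue plasminogen activator gene, rose by 4.56 in each comparison from at most 5 reads in any no BDL library, and Anxa2, whose product binds plasminogen and its activator at the cell surface, rose by 3.63 and 3.03. Plaur, the urokinase receptor gene, rose by 4.14 and 3.16, F2rl1, a protease-activated receptor gene, by 4.15 and 3.31, and F13a1, the catalytic subunit of factor XIII, by 3.92 and 2.96. These genes too had few reads in any no BDL library, at most 13 for Plaur and F13a1 and 9 for F2rl1.

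Of the 26 other complement genes tested, 7 rose and 6 fell in each comparison. The shares over all genes were again 19.1% and 16.6% in miR-Ctrl BDL, and 13.1% and 8.44% in anti-miR-873-5p BDL. Receptor genes carried by leukocytes were the highest, with log2 fold changes of 3.67 and 2.92 for Itgam, 3.29 and 2.48 for C5ar1, 2.51 and 1.67 for Itgb2, 2.30 and 2.07 for Itgax and 2.25 and 2.23 for C3ar1. Within the plasminogen system Plg fell in miR-Ctrl BDL while Plat and Plaur rose. Neutrophil markers moved alongside. Of 7 markers 6 were found, and 4 were at 0 in at least 1 mouse. All 4 tested in miR-Ctrl BDL rose, as did all 3 tested with the inhibitor, where Mpo did not pass the filter on low counts. Their summed normalised read count was 3.34 to 15.2 in no BDL mice, 20.3 to 240.0 in miR-Ctrl BDL and 14.5 to 73.5 in anti-miR-873-5p BDL mice, and their part in the receptor values was not tested.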

How the data were processed

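Livers of 13 mice were sequenced with unstranded TruSeq RNA v2 libraries as 50 nt single reads and aligned to mm10 with TopHat by the authors, who deposited raw read counts per Entrez gene in 3 tables, one per pair of groups. The counting program is not given in the sources used here. Per the labels, CASAVA 1.8.2, FastQC, Trim Galore and DESeq2 were also used. The table of the ligated groups holds 3 mice of each (miR-Ctrl BDL 1, 2 and 4, anti-miR-873-5p BDL 1, 3 and 4), the authors having removed outliers.

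The deposited counts of each table were fitted over all genes with edgeR 4.0.16 in R 4.3.3 (filterByExpr, TMM, quasi-likelihood F test, Benjamini-Hochberg adjustment, threshold 0.05), with the standard error taken as the log2 fold change over the root of F. The script was tested on simulated counts. Normalised read counts of single mice came from 1 TMM scaling of the 22246 genes whose counts are the same in every table, and levels per kilobase from the union of exons in GENCODE M21. Counts of Cfb and C8g differ between tables by at most 0.0707% and 0.802%. Gene positions are RefSeq on GRCm38.p6. The 38 genes, the gene lists and the tests were chosen with earlier results of these data known.

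Genes were described singly by rule: per-mouse values for genes past the threshold with an absolute log2 fold change of at least 1 against no BDL, and for C3, Fga, F2, Serpinc1 and C1qa; the 6 furthest from 0 between the ligated groups; and the largest changes among other pathway genes, of which 1 is not reported here. Further genes were given values where they bear on a role. Alternatives were DESeq2 1.42.0, other scalings, low-count filters, a fit of all 3 groups, mouse number as a block, and each mouse left out.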

Additional observations from a re-analysis of the deposited data

Results flagged for a closer look

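Of the 114 sets of values (38 genes in 3 groups), 12 had a mouse whose gap to the nearest other mouse was a larger share of the group's range than Dixon's 95% critical value. Chance flags about 1 in 20 such sets. In 6 of the 12 the mouse was miR-Ctrl BDL mouse 3. It was the highest of its group in F5 (382 normalised reads, the others at 232.8 to 255.8), F12 (701.3, the others at 413.1 to 442.9) and C4bp (1318, the others at 739.8 to 825.3). It was the lowest in Klkb1 (27.16, the others at 51.86 to 56.41), Hc (493.4, the others at 761.2 to 782.3) and C9 (115.3, the others at 375.3 to 408.2). Mouse 2 of anti-miR-873-5p BDL was the lowest in F7 (44.92, the others at 75.12 to 81.28) and C8a (116.7, the others at 704 to 799.3).

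No BDL mouse 5 was the highest in Fga (9334, the others at 3644 to 5184) and Fgb (9289, the others at 3899 to 5131). No BDL mouse 2 was the highest in Serpind1 (661.7, the others at 485.8 to 520.1) and Masp1 (93.04, the others at 60.47 to 65.91). For 0 of the 38 genes did the 2 ligated groups lie wholly on opposite sides of the no BDL mean.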

How the results depend on the processing

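Against no BDL, the counts of members rested most on scaling. With library size alone, miR-Ctrl BDL had 20 members higher and 2 lower, and anti-miR-873-5p BDL had 18 and 1. Of all genes, 9635 and 10194 were then called, 9360 and 10063 of them higher, against 4666 and 2823 called as reported. Without the 20 top genes in the library size, the counts were 10 and 6, and 7 and 3. Of all genes, 5982 were then called in miR-Ctrl BDL and 4745 in anti-miR-873-5p BDL. Under library size alone the log2 fold change turned positive in miR-Ctrl BDL for 17 of the 24 members with a negative value, among them F13b (0.10), F2 (0.23), F7 (0.14), F10 (0.33), Serpind1 (0.19), Plg (0.26), Mbl1 (0.32), C6 (0.08) and C9 (0.43). In anti-miR-873-5p BDL it did so for 23 of 28, among them F13b (0.20), F2 (0.21), F7 (0.16), F10 (0.24), Serpinc1 (0.25), Serpind1 (0.15), Proc (0.07), Plg (0.32), Mbl1 (0.34), Masp2 (0.07) and C6 (0.026). Members higher in anti-miR-873-5p BDL, 2 as reported, numbered 5 with an adjusted p under 0.1, where 4087 of all genes were called. They numbered 5 with DESeq2 (3630 of all genes). With all 3 groups in 1 fit, which left out Cfb and C8g, they numbered 5 (3156 of all genes). Without no BDL mouse 5 and anti-miR-873-5p BDL mouse 2 they numbered 6, where 4819 of all genes were called. That last alternative was chosen after seeing the data, as was the fit without no BDL mouse 5 and miR-Ctrl BDL mouse 3.

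Leaving out 1 mouse, miR-Ctrl BDL had 2 to 7 members higher and 10 to 16 lower (3775 to 5710 of all genes), and anti-miR-873-5p BDL had 1 to 5 higher and 5 to 13 lower (1261 to 4317 of all genes). Fga ranged from -0.152 without miR-Ctrl BDL mouse 3 to 0.693 without no BDL mouse 5 in the first comparison. Between the ligated groups no member was called under any alternative, and of all genes 0 to 1 were called without 1 mouse and 30 with DESeq2. Cfb and C8g, whose counts differ between tables, were not in the fits of all 3 groups or of all 4 mice of each group. Mbl1 turned to -0.052 with all 3 groups in 1 fit and -0.051 with all 4 mice of each group. C1qc ranged from -0.578 to 0.067 and C8g from -0.032 to 0.349 when 1 mouse was left out, both turning without anti-miR-873-5p BDL mouse 1. The cause of these turns was not tested.

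Mice share only a number across groups. Same-numbered mice had correlations of deviations from -0.198 to 0.074 against no BDL, and 0.349 and -0.016 between the ligated groups, so the pairing is not borne out. With the mouse number as a block, miR-Ctrl BDL had 6 members higher and 9 lower, and anti-miR-873-5p BDL had 5 and 4. Of all genes, 2168 were then higher and 1895 lower in miR-Ctrl BDL, and 1449 and 746 in anti-miR-873-5p BDL.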
